A study of Mus musculus with 5 samples.

Results

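RNA labelled visceral adipose tissue, from diabetic mice given curcumin, was set against RNA of the same tissue label from a control group. There were 2 curcumin libraries (curcumin 1 and curcumin 2) and 1 control library (control 1), 3 of the study's 5 libraries. All mice were C57BL/6 males. The curcumin group had received streptozotocin, a toxin that destroys insulin-producing beta cells, as one 70 mg/kg injection on day 2 of life, then a high-fat diet (60% of energy as fat) for 8 weeks from week 3, and from week 11 curcumin, the yellow polyphenol of turmeric, at 50 mg/kg by gavage each day for 28 days. The control group ate standard chow and was given vehicle. The groups therefore differ in toxin, diet and curcumin together, and what each contributes cannot be told apart here. The control has no replicate, and the labels do not say whether the 2 curcumin libraries came from separate mice, so p-values measure a spread between libraries that may in part be technical.

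Genes were chosen by side: a gene counted as higher or lower where both curcumin libraries lay on the same side of the control in CPM, the counts scaled to a common library total. Of 78334 genes in the table, 28897 had at least 10 counts in 1 of the 3 libraries. Among these, 7191 (24.9%) were higher in both curcumin libraries, 9829 (34.0%) were lower in both, and 11877 (41.1%) were split or tied. With TMM scaling, which sets libraries to a common level across most genes, the counts were 8972 higher and 8059 lower, so which side holds more genes depends on the scaling. Each gene named in the text as higher in both or lower in both kept its side under TMM scaling, under DESeq2's size factors and with totals that leave out genes above 1% of a library.

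White adipose tissue stores triglyceride in adipocytes and also holds macrophages, lymphocytes, vessels and fibroblasts, whose matrix and immune genes are known to be raised in obese fat. Insulin drives glucose uptake and lipid synthesis there, and adipocytes secrete hormones such as leptin and adiponectin as well as angiotensinogen. In male mice the epididymal fat pad lies against the epididymis, the duct in which sperm mature. Its epithelium secretes defensins, lipocalins and protease inhibitors, many of them in some segments of the duct and not in others.

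The label was checked against marker genes, and the libraries did not look alike. Total counts were 27026597 in the control, 27814957 in curcumin 1 and 42422890 in curcumin 2. A count of 0 allows up to 3 counts, which is 0.111 CPM in the control, 0.108 in curcumin 1 and 0.0707 in curcumin 2. Adipocyte genes (23 genes, among them adiponectin and leptin) took 0.0903% of counts in the control (95% Wilson interval 0.0891% to 0.0914%), 0.623% in curcumin 1 and 0.0364% in curcumin 2. In the libraries of untreated diabetes they took 0.0277% and 5.49%. All 3 libraries compared lay far below the second of these and were poor in transcripts of fat, the labelled tissue. Epididymal epithelium genes (31 genes) took 9.82% in the control, 0.845% in curcumin 1 and 13.9% in curcumin 2. In this summed share the control and curcumin 2 were nearer each other, though single epididymal genes differed widely between them, as given below. Curcumin 1 stood apart. Its leading gene was Akr1b7, an aldo-keto reductase abundant in the vas deferens, at 17874 CPM against 8.7 in the control and 0.141 in curcumin 2. Smooth muscle genes took 6.36% of curcumin 1, against 0.313% of the control and 0.269% of curcumin 2. None of these intervals and limits covers more than counting error, since the reads carry no molecular identifiers. In bulk tissue, fewer cells of a type and less RNA per cell cannot be told apart. Whether these differences in tissue makeup set the sides given here was not tested, and both curcumin values are given for each gene so that a side can be read against them.

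**Figure D1:**
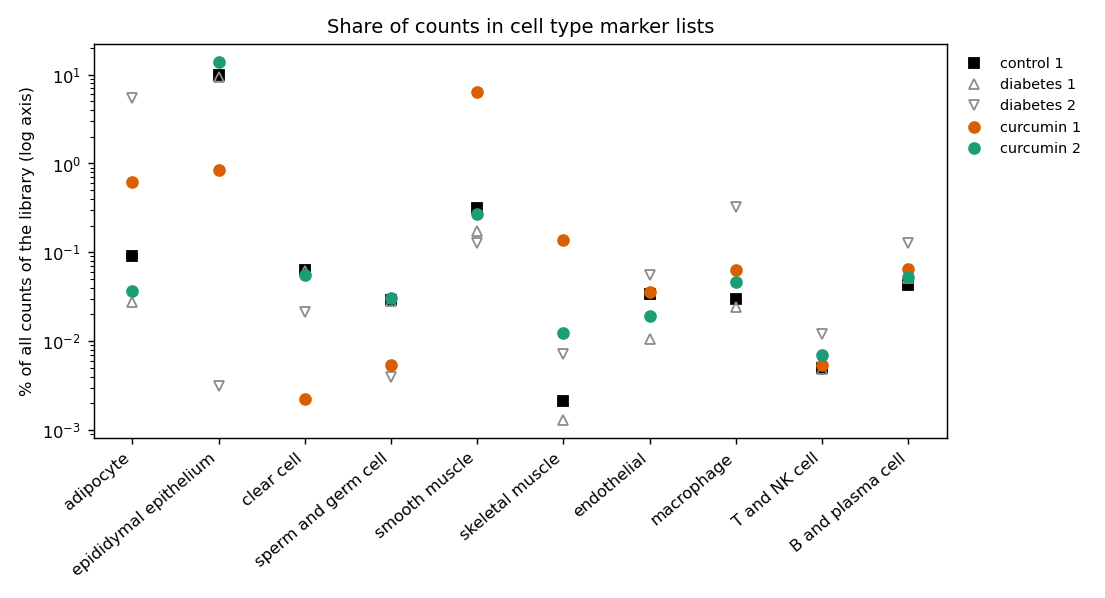
Share of all counts taken by 10 marker lists (y axis, percent of library counts, log scale) in each of the 5 libraries. Epididymal genes took 9.82% of the control, 0.845% of curcumin 1 and 13.9% of curcumin 2, while smooth muscle genes took 6.36% of curcumin 1, 0.313% of the control and 0.269% of curcumin 2.

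Curcumin 2 stood apart in another way. Of 9914 processed pseudogenes, copies of spliced transcripts set back into the genome, 133 had at least 5 CPM and at least 10 times the level of every other library there. The same count was 0 in the control, 4 in curcumin 1, and 0 and 6 in the 2 libraries of untreated diabetes. Processed pseudogenes took 6.98% of counts in curcumin 2, 4.98% in the control and 4.37% in curcumin 1. By the same measure 16 coding genes were high in curcumin 2 alone, and they included genes of developing muscle. Actc1, cardiac alpha-actin, which embryonic skeletal muscle also makes, had 197 CPM in curcumin 2 against 1.04 in curcumin 1 and 0 counts in the control. Myod1, the master regulator of muscle fate, had 6.58 CPM there against 0.144 in curcumin 1 and none in the control. Myog, which drives myoblast differentiation, had 6.03 CPM against 0.036 and none. These 3 genes were chosen after their values were seen. Whether these transcripts came from the labelled tissue was not tested, which bears on how any value of curcumin 2 is read. Nor was their part tested in the genes below that were far higher in curcumin 2 than in curcumin 1 (Fn1, Col1a1, Thbs1, Mmp2 and Top2a) or in the muscle genes Acta1 and Des.

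edgeR's quasi-likelihood test over all 5 libraries called no gene between the curcumin and control groups: 0 of 29855 tested genes (0.0%) had an adjusted p under 0.05 in either direction. Before adjustment, 113 genes had a p under 0.05, 68 of them higher, and the smallest adjusted p was 1. The spread was wide, with a biological coefficient of variation of 1.07 and 2 residual degrees of freedom, the lone control being assumed to vary like the other groups. limma-voom also called 0 genes, and 100 had a p under 0.05 before adjustment. DESeq2 called 77 higher (0.258%) and 0 lower. Of those 77, 76 had 0 counts in the control and 40 were higher in both curcumin libraries. The one with counts in the control was Igha. No gene below therefore passed the main test, and higher and lower describe the levels in these 3 libraries.

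A margin of at least 2-fold in both curcumin libraries, on log2(CPM + 0.5), was reached by 451 genes (1.56%) on the higher side and 1078 (3.73%) on the lower side. The median log2 difference from the control over all 28897 genes was 0.014 in curcumin 1 and -0.13 in curcumin 2. Curcumin 1 differed from the control by at least 2-fold at 8561 genes and curcumin 2 at 5011.

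**Figure D2:**
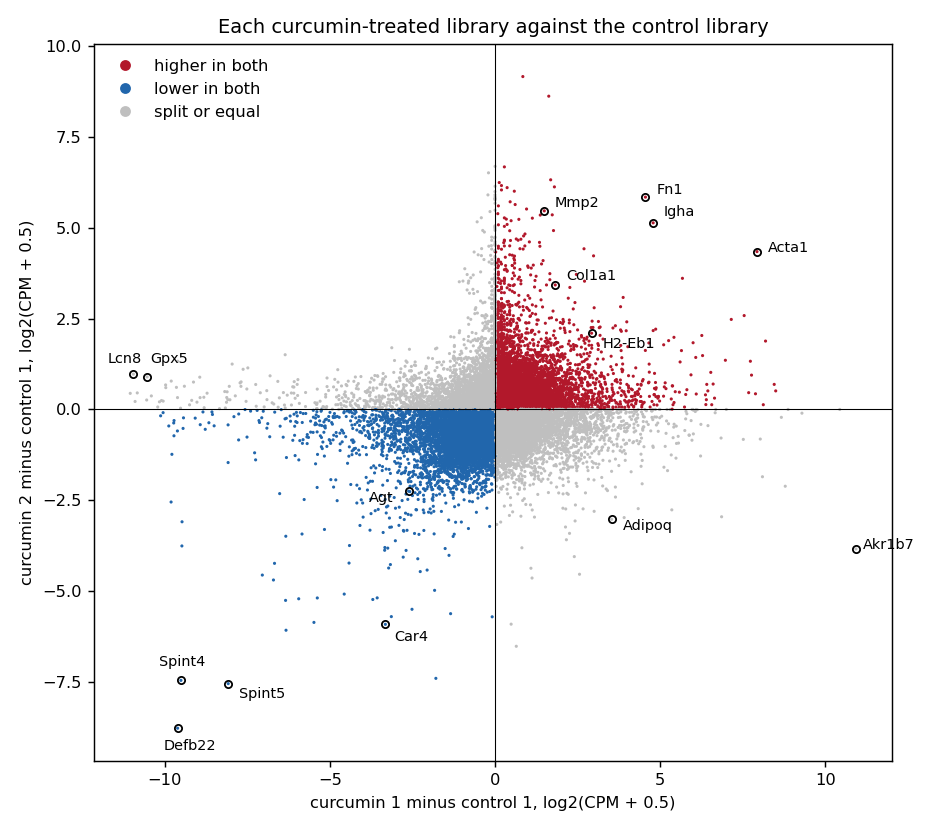
Each point is 1 of the 28897 genes, with its difference from the control in curcumin 1 (x axis) and curcumin 2 (y axis), both in log2(CPM + 0.5). Red genes (7191) were higher in both, blue genes (9829) lower in both and grey genes split; Akr1b7, Adipoq, Gpx5 and Lcn8 lie far out among the split genes.

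The gene lists sorted by function differed in their balance. Lists of immune cells, antigen presentation, chemokines and matrix had more members higher in both than lower in both. Lists of cholesterol synthesis, insulin signalling, solute transport, endothelial cells and clear cells of the epididymis had more members lower in both, and a larger share of them than over all genes. Lists of fatty acid synthesis, xenobiotic metabolism and epididymal epithelium had few or no members higher in both, but their share lower in both was at or below that over all genes. The background for each count is the share over all genes, 24.9% higher and 34.0% lower, and a list near those shares says nothing about its members. A gene with no counts in the control cannot be lower in both, and one with no counts in the curcumin libraries can only be lower. Lists with many such genes therefore have part of their balance set by the filter.

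**Figure D3:**
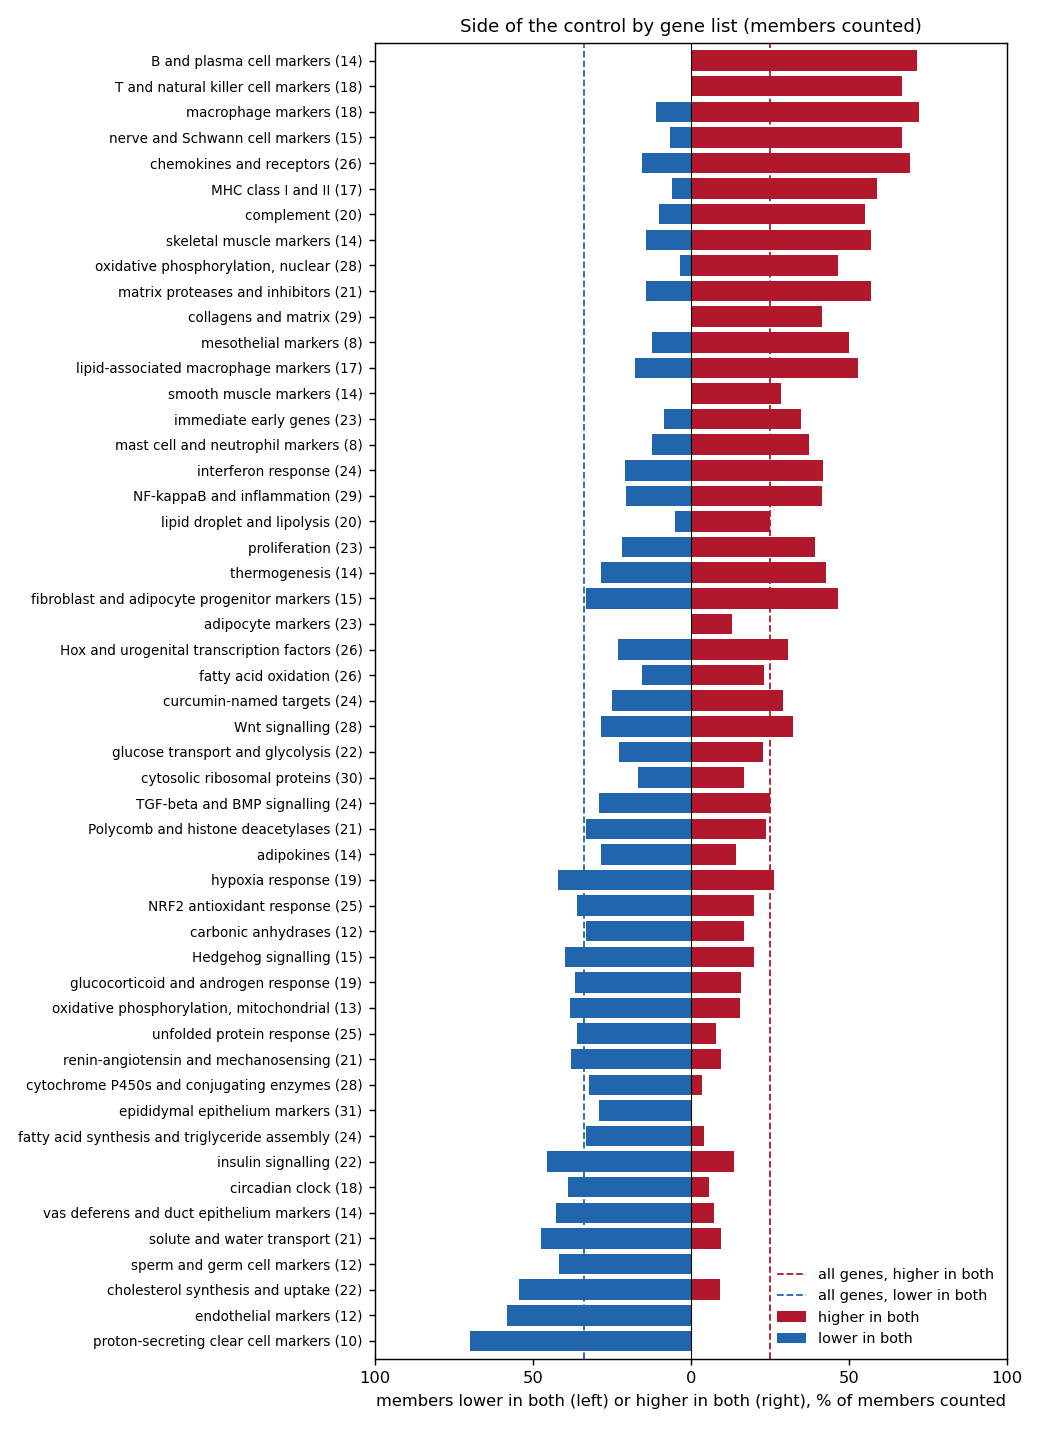
Percent of each list's counted members that were higher in both curcumin libraries (red, right) or lower in both (blue, left), with the number of members counted in parentheses. Dashed lines give the shares over all genes, 24.9% higher and 34.0% lower; T and natural killer cell, B and plasma cell and chemokine lists lie near the top.

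Genes of B and plasma cells were higher in both curcumin libraries for 10 of 14 counted members and lower in both for none. Of the 16 listed genes 7 had 0 counts in the control, and a gene at 0 there cannot be lower in both. Igha, the constant region of IgA, the antibody class of mucosal surfaces, had 0.222 CPM in the control, 19.4 in curcumin 1 and 24.9 in curcumin 2. Both curcumin libraries were near each other and far above the control, by 87.5-fold (95% counting interval 39.9 to 239) and 112-fold (51.4 to 306). Its fitted log2 fold change was 6.77 ± 1.28 (SE), with an unadjusted p of 0.00359 in edgeR and an edgeR adjusted p of 1. The unadjusted p was the smallest of the higher genes ranked. Ranking by p took counted genes with a symbol, predicted genes left out, and a mean log2 CPM of at least 1. DESeq2 gave Igha an adjusted p of 0.000833. The other antibody classes were less even. Ighm, the heavy chain of IgM, had 5.55 CPM in the control, 208 in curcumin 1 and 20.3 in curcumin 2. Ighg2b, an IgG heavy chain, had 0 counts in the control and 70.6 and 2.29 CPM in the curcumin libraries, at least 636-fold and 20.6-fold higher. Its neighbour in class, Ighg2c, likewise had 0 counts in the control, with 92.6 and 2.5 CPM in curcumin 1 and 2. Immunoglobulin constant regions resemble each other, so reads may be divided among them. The list as a whole took 0.0430% of counts in the control, 0.0645% in curcumin 1 and 0.0521% in curcumin 2.

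T and natural killer cell genes were higher in both for 12 of 18 and lower in both for 0. Of the 18, 4 had 0 counts in the control and so could not be lower in both. The summed share of the list was 0.00504% in the control, 0.00541% in curcumin 1 and 0.00693% in curcumin 2. Chemokines and their receptors were higher in both for 18 of 26 members and lower in both for 4. Their summed share was 0.02083% in the control, 0.04417% in curcumin 1 and 0.02005% in curcumin 2, so in curcumin 2 it was not above the control. Ccr2, the receptor by which monocytes enter inflamed tissue, had 1.22 CPM in the control, 14.6 in curcumin 1 and 8.72 in curcumin 2, which is 11.9-fold and 7.14-fold. Ccl8, a chemokine that attracts monocytes and T cells, stood at 0.37, 11.6 and 5.68 CPM in the same order. Ccl9, another monocyte attractant, had 2.59, 29.9 and 5.26 CPM, so most of its excess was in curcumin 1. Cxcl16, which is made by macrophages and binds T cells carrying its receptor, ran from 10.1 CPM in the control to 27.4 and 14.1.

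Macrophage genes were higher in both for 13 of 18 members and lower in both for 2. Their summed share was 0.0297% in the control (Wilson interval 0.0291% to 0.0304%), 0.0632% in curcumin 1 and 0.0466% in curcumin 2. C1qa, a chain of the first complement component and a resident macrophage gene, had 38.6 CPM in the control, 111 in curcumin 1 and 110.0 in curcumin 2. The 2 curcumin values nearly coincide. Lyz2, the myeloid lysozyme, had 25.2, 105 and 69.5 CPM, and Tyrobp, the adaptor of myeloid activating receptors, followed the same order. Clec10a, a lectin of dendritic cells and alternatively activated macrophages, stood at 1.7 CPM in the control, 30.2 in curcumin 1 and 9.55 in curcumin 2. Pirb, an inhibitory receptor of myeloid and B cells that binds class I molecules, had 0.703, 14.5 and 5.45 CPM. Adgre1, the classical macrophage marker F4/80, was not on the same side in both: it had 7.03 CPM in the control, 15.1 in curcumin 1 and 4.36 in curcumin 2. Markers of the lipid-laden macrophages of obese fat were higher in both for 9 of 17 and lower in both for 3. Among them Trem2, the lipid-sensing receptor that defines these cells, had 9.36, 33.5 and 16.7 CPM.

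Antigen presentation genes were higher in both for 10 of 17 members and lower in both for 1, or 13 and 0 with TMM scaling. The summed share of the list was 0.2742% in the control, 0.4722% in curcumin 1 and 0.2698% in curcumin 2, so in curcumin 2 it was not above the control. Of the members with at least 5 CPM in both curcumin libraries, the 4 with the largest margins all belong to the class II pathway. That pathway shows peptides from engulfed proteins to helper T cells. Members at lower levels were not ranked, and 5 members of the list in all were at least 2-fold higher in both, Cd74 not among them. H2-Eb1, a class II beta chain, had 36.7 CPM in the control, 282 in curcumin 1 and 159 in curcumin 2. H2-Aa, the alpha chain of the other mouse class II molecule, had 38.1, 254 and 136 CPM. Its partner H2-Ab1 had 39.9, 269 and 104 CPM. Cd74, the invariant chain that guides class II molecules to the endosome, had 105, 611 and 204 CPM. All 4 were highest in curcumin 1, with H2-Eb1 at 7.67-fold there and 4.33-fold in curcumin 2. None passed the test, the fitted log2 fold change of H2-Eb1 being 2.70 ± 1.71 (SE).

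Class II genes are known to share a promoter module that includes a Y box, an inverted CCAAT element bound by NF-Y. The RefSeq promoters of H2-Aa and H2-Eb1 (GRCm38.p6, 250 bases before to 50 after the start) are shown because these genes stood together on the higher side, and H2-Ab1 and Cd74 had no entry in the table used. The Y box searched, CTGATTGG or its reverse complement CCAATCAG, is in capitals, and it begins 51 bases before the start in H2-Aa and 62 in H2-Eb1. H2-Aa lies at chr17:34287774-34288073 on the minus strand and H2-Eb1 at chr17:34305617-34305916 on the plus strand.
H2-Aa: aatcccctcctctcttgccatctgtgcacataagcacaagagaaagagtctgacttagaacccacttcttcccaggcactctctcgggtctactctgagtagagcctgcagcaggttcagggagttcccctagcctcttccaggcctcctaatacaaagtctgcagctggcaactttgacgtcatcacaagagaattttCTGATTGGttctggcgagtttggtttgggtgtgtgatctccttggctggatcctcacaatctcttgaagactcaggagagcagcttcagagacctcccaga
H2-Eb1: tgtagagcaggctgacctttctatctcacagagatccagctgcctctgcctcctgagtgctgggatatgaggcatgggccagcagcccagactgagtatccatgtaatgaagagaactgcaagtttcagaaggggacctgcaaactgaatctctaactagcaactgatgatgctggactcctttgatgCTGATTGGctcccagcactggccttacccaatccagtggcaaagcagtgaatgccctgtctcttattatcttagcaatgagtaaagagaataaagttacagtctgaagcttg
Of the 17 antigen presentation genes 12 had a promoter in the table, and 6 held this motif (H2-Aa, H2-D1, H2-Eb1, H2-K1, Psmb9 and Tap1), against 4.1% of all 32851 promoters. Only H2-Aa and H2-Eb1 of these 6 are class II genes, so the pooled count is not one of class II promoters. These letters are a description of the sequence and not a measured binding site.

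Complement genes were higher in both for 11 of 20 and lower in both for 2, interferon response genes for 10 and 5 of 24, and NF-kappaB and inflammatory genes for 12 and 6 of 29. The summed share of complement genes was 1.015% in the control, 0.1874% in curcumin 1 and 1.097% in curcumin 2, so in curcumin 1 it was far below the control. In the same order, interferon genes took 0.04785%, 0.06985% and 0.04907%, and NF-kappaB and inflammatory genes 0.06432%, 0.2128% and 0.06044%. Among interferon genes, Ifi27l2a had 8.66 CPM in the control, 204 in curcumin 1 and 15.7 in curcumin 2. Oas1a, an antiviral RNA sensor, had 2.77, 9.17 and 6.81 CPM. Stat2, a transcription factor of the same response, lay on the other side at 64.5, 26.9 and 34.5 CPM. Interferon genes were thus not on one side. Vcam1, an adhesion molecule by which leukocytes enter tissue, had 5.29 CPM in the control, 12.4 in curcumin 1 and 14.7 in curcumin 2.

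Collagen and matrix genes were higher in both for 12 of 29 members and lower in both for none, and the other 17 were split. The summed share was 0.181% in the control, 0.639% in curcumin 1 and 0.400% in curcumin 2. Fn1, fibronectin, a scaffold protein of the matrix, had 19.1 CPM in the control, 460.1 in curcumin 1 and 1128 in curcumin 2, or 24.1-fold (counting interval 22 to 26.3) and 59-fold. Its log2 fold change was 5.56 ± 2.56 (SE), with an unadjusted p of 0.0846 and an edgeR adjusted p of 1. Col1a1, the main chain of type I collagen, had 87.5, 311 and 947 CPM. Thbs1, thrombospondin, a matrix protein that can activate latent TGF-beta, had 12.2, 33.1 and 203 CPM. Loxl1, an enzyme that crosslinks elastin, had 13.3, 26.4 and 63.8 CPM. In these 4 genes the highest level was in curcumin 2, the library with the muscle and pseudogene transcripts. In curcumin 1 alone they exceeded the control by 24.1-fold, 3.55-fold, 2.72-fold and 1.99-fold.

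Matrix proteases and their inhibitors were higher in both for 12 of 21 and lower in both for 3. Mmp2, the type IV collagenase, had 3.4 CPM in the control, 10.5 in curcumin 1 and 172 in curcumin 2, so the excess was mostly in curcumin 2. Adamts5, an aggrecan protease, was higher chiefly in curcumin 1, at 13.1, 55.9 and 22.1 CPM. Of the inhibitors, Timp2 had 94.4, 355 and 139.7 CPM and was likewise highest in curcumin 1. Timp3, the matrix-bound inhibitor, had 20.8, 45.8 and 37 CPM. Sulf1, a sulfatase that trims heparan sulfate outside the cell, had one of the widest margins, with 2 CPM in the control, 127 in curcumin 1 and 30.0 in curcumin 2. Fst, follistatin, a secreted antagonist of activin, had 1.26, 50.7 and 7.64 CPM. Ltbp1, which tethers latent TGF-beta to the matrix, had 19.2, 74 and 40.6 CPM, while Tgfb1 itself lay lower in both at 98.1, 46.8 and 58.1 CPM. Pi16, a marker of fibroblast progenitors, had 4.37 CPM in the control and 23.7 and 14.8 in the curcumin libraries. Fibroblast and progenitor genes as a list were nearly even, with 7 of 15 higher in both and 5 lower in both.

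Muscle and cytoskeletal genes divided between the libraries. Acta1, skeletal alpha-actin, had 3.89 CPM in the control, 1069 in curcumin 1 and 88.7 in curcumin 2, 275-fold and 22.8-fold. Des, desmin, the intermediate filament of muscle, had 103, 5046 and 257 CPM. Tpm2, a tropomyosin of smooth and skeletal muscle, had 114, 7830 and 154 CPM. In all 3 the curcumin 1 value was far above that of curcumin 2, in the library where smooth muscle genes took 6.36% of counts. Smooth muscle genes were higher in both for 4 of 14 and otherwise above the control in curcumin 1 only. Acta2, smooth muscle actin, was such a case, with 561 CPM in the control, 10340 in curcumin 1 and 394 in curcumin 2. Skeletal muscle genes were higher in both for 8 of 14 and lower in both for 2, one of which was Mb, myoglobin, at 7.14, 2.23 and 2.24 CPM. They took 0.00214% of counts in the control, 0.139% in curcumin 1 and 0.0122% in curcumin 2. Most of this was Acta1, with 29736 of the list's 38561 counts in curcumin 1 and 3762 of 5182 in curcumin 2. The median of the list was 0.703 CPM in the control, 1.65 in curcumin 1 and 1.9 in curcumin 2. In the control 4 members had 0 counts and so could not be lower in both. Curcumin 2 also held the genes of developing muscle that were high in it alone, among them Actn2 at 24.2 CPM, Myh3 at 13.8 and Tnnc1 at 12.4, beside Actc1. Vcl, vinculin, which links actin to sites of adhesion, was more even, with 11.3, 106 and 56.3 CPM and an unadjusted p of 0.0408. S100a6, a calcium-binding protein of fibroblasts and other dividing cells, had 42.6 CPM in the control and 224 and 216 in the curcumin libraries, 5.27-fold (4.95 to 5.62) and 5.08-fold (4.78 to 5.41). The 2 curcumin libraries were nearly level.

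Many actin and adhesion genes are known to be driven by serum response factor through a CArG box. The RefSeq promoters of Acta1 and Vcl (GRCm38.p6, same window) are shown as the 2 cytoskeletal genes among the 15 with the widest margins. The CArG box, in capitals, begins 73 bases before the start in Acta1 and 227 in Vcl, and in Acta1 a TATA box (TATAAA) is in capitals as well. Acta1 lies at chr8:123894726-123895025 on the minus strand and Vcl at chr14:20929148-20929447 on the plus strand.
Acta1: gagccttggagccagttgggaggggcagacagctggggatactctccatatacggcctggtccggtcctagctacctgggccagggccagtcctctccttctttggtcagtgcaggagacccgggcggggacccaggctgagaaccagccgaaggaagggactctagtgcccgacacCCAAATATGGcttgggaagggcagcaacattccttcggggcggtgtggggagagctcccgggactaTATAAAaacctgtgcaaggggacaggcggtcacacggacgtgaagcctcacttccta
Vcl: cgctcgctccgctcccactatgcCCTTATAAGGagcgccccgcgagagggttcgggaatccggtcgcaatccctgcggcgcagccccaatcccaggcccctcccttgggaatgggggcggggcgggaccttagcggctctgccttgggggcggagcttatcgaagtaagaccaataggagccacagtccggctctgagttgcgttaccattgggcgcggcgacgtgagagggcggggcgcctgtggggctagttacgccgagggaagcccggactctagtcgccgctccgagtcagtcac
The 2 motifs do not overlap in Acta1. Searched on both strands, the CArG box was found in 1.63% of all 32851 promoters, in 1 of 10 smooth muscle list genes with a promoter (Myl9) and in 0 of 19 collagen and matrix genes. TATAAA on either strand was found in 13.6% of all promoters.

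Some stress-responsive and other genes were also higher in both. Immediate early genes were higher in both for 8 of 23 and lower in both for 2. The other 13 were split, 12 of them above the control in curcumin 1 only. The summed share of the list was 0.09135% in the control, 0.146% in curcumin 1 and 0.08682% in curcumin 2, so the list as a whole was not higher in curcumin 2. Ier5l had 11.4 CPM in the control, 43 in curcumin 1 and 32.6 in curcumin 2, with an unadjusted p of 0.0443. Atf3, a stress-induced transcription factor, had 2.81, 18.3 and 6.69 CPM. Ccn1, a matricellular target of YAP and serum response factor, had 17.2, 48.9 and 38 CPM. Nuclear genes of oxidative phosphorylation were higher in both for 13 of 28 and lower in both for 1. The other 14 were split, all above the control in curcumin 1 only. The summed share of the list was 0.3893% in the control, 0.7022% in curcumin 1 and 0.379% in curcumin 2. Margins of the genes higher in both were small, as in Ndufb10, a subunit of complex I, with 104, 187 and 166 CPM. Angptl6, a secreted angiopoietin-like protein, was among the 5 higher genes with the smallest p, with 0.333 CPM in the control, 9.38 in curcumin 1 and 3.44 in curcumin 2 (unadjusted p = 0.0265 in edgeR, adjusted p = 1). Sobp had 0.74, 9.42 and 8.13 CPM. Kcnma1, the large-conductance calcium-activated potassium channel, had 2.89, 25.9 and 15.7 CPM. The adhesion gene Pcdh18 and the RNA-binding gene Igf2bp2 also ranked among the 15 widest margins, from 0.407 and 0.629 CPM in the control to between 5.54 and 12.8 CPM in the curcumin libraries. Top2a, a topoisomerase of dividing cells, had 2.74, 6.15 and 20.9 CPM, highest in curcumin 2. Just outside the 15 came Fbn2 and Zeb2, with smaller margins of 2.17 and 2.12 on the log2 scale, against 2.19 for Clec10a, the last inside.

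**Figure D4:**
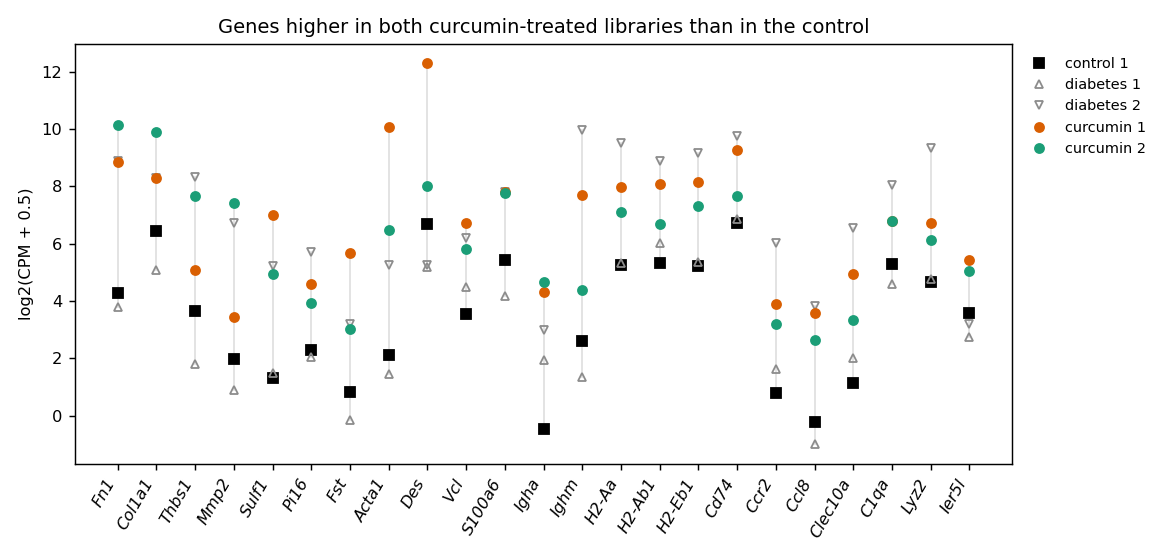
Level of 23 genes higher in both curcumin libraries, as log2(CPM + 0.5) in each of the 5 libraries (y axis), with the control as black squares and curcumin 1 and 2 as filled circles. The 2 curcumin points lie close together for S100a6 and C1qa and far apart for Mmp2, Des and Ighm.

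On the lower side the widest margins belonged to secreted proteins of the epididymis. Defb22, a beta-defensin that coats sperm, had 447 CPM in the control and 0.0719 and 0.519 CPM in the curcumin libraries. That is 2 counts in curcumin 1, a ratio of 6210 (1719 to 51280), and 861-fold lower (568 to 1374) in curcumin 2. Spint4, a Kunitz-type protease inhibitor, had 652 CPM in the control, 0.395 in curcumin 1 and 3.21 in curcumin 2. Its relatives Spint5 and Spint3 behaved alike, with 212 and 101 CPM in the control and between 0.288 and 8.51 CPM in the curcumin libraries. Defb38 had 39.7 CPM in the control, 0 counts in curcumin 1 (at least 368-fold lower) and 0.0943 CPM in curcumin 2. Defb26 had 43, 0.036 and 0.636 CPM. Neither curcumin library came near the control for these genes.

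Wfdc13 and Wfdc16 encode whey acidic protein-type inhibitors. Wfdc13 had 845 CPM in the control, 0.683 in curcumin 1 and 62 in curcumin 2. Wfdc16 had 259, 1.98 and 9.5 CPM. Pate2, of the sperm-associated PATE family, had 113, 0.36 and 4.31 CPM, and its relative Pate3 had 10.2 CPM in the control, 0 counts in curcumin 1 and 3 counts in curcumin 2. Bsph2, a binder of sperm membranes, had 30.3 CPM, 0 counts and 0.33 CPM. Several non-secreted genes stood beside them. Abcb5, a membrane transporter, had 106, 1.87 and 1.32 CPM. Aspg, an asparaginase, had 80.1, 0.288 and 3.77 CPM with an unadjusted p of 0.0404. St8sia5, a sialyltransferase, had 17, 0.324 and 0.801 CPM. Mid1, a ubiquitin ligase of microtubules, had 27.2, 1.83 and 0.259 CPM, a value that is uncertain because reads can be divided with its copy Mid1-ps1. Just outside the 15 lay Defb40 and Ftcd, at -3.43 and -3.34 on the log2 scale, against -3.49 for Spint3, the last inside.

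Whole families, counted after these values had been seen, were not all on one side. Beta-defensins were lower in both for 15 of 36 counted genes and higher in both for none, PATE genes for 4 of 4, and Spint genes for 3 of 5. Whey acidic protein-type (Wfdc) genes lay on both sides, with 6 of 17 lower in both and 3 higher in both. Near-identical defensins may share reads. Among the 31 epididymal epithelium markers 9 were lower in both, a share below that over all genes, and 22 were split. Gpx5, the epididymal glutathione peroxidase, had 29812 CPM in the control, 19.6 in curcumin 1 and 55412 in curcumin 2. Lcn8, a lipocalin of the same epithelium, had 10028, 4.57 and 19664 CPM. So curcumin 2 exceeded the control in these abundant genes while it held under 1 CPM of Defb22 and Spint5. Rnase9 lay between, with 2102, 1.98 and 1623 CPM. Spink8, a Kazal-type inhibitor, was the even case, with 2098, 1587 and 1486 CPM. Crisp1, a sperm-binding protein, was split the other way, at 2610 CPM in the control, 5965 in curcumin 1 and 334 in curcumin 2. Genes of the proton-secreting clear cells of the duct were lower in both for 7 of 10, as in Atp6v0d2, a proton pump subunit, with 80.7, 8.2 and 54.3 CPM. Genes of sperm and germ cells were lower in both for 5 of 12, and the other 7 were lower in curcumin 1 only, as was Prm2, a protamine of sperm chromatin, with 57.1, 0.108 and 59.6 CPM. Duct epithelium genes were lower in both for 6 of 14 and higher in both for 1. Those lower included Epcam, an epithelial adhesion molecule, with 409, 195 and 281 CPM, and Pax8, a transcription factor of urogenital ducts, with 241, 159.9 and 166 CPM.

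Beside these, a set of metabolic and vasoactive genes was lower in both curcumin libraries. Whether their levels go with the tissue makeup of the libraries was not tested. Agt, angiotensinogen, the precursor of angiotensin that adipocytes and liver secrete, had 50.9 CPM in the control, 7.87 in curcumin 1 and 10.3 in curcumin 2. It was 6.47-fold lower (5.6 to 7.49) and 4.94-fold lower (4.43 to 5.52), with a log2 fold change of -2.33 ± 0.54 (SE). Its unadjusted p of 0.00797 in edgeR was the smallest of the lower genes ranked, with an edgeR adjusted p of 1. Ace, the angiotensin-converting enzyme, which is abundant in the epididymis and testis, had 752, 37.7 and 399.6 CPM. Piezo1, a stretch-activated cation channel, had 68.9, 17.7 and 9.12 CPM and an unadjusted p of 0.0215. The list of renin-angiotensin and mechanosensing genes was lower in both for 8 of 21, not far from the 34.0% over all genes, and higher in both for 2. With TMM scaling the counts were 7 and 4, so the list as a whole showed no clear side.

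Car4, a membrane-bound carbonic anhydrase, had 117 CPM in the control, 11.2 in curcumin 1 and 1.44 in curcumin 2 (unadjusted p = 0.014 in edgeR, adjusted p = 1). Cbs, cystathionine beta-synthase, which commits homocysteine to cysteine synthesis, had 22.1, 3.06 and 1.74 CPM. Ftcd, an enzyme of histidine breakdown that feeds the folate pool, had 8.58, 0.395 and 0.118 CPM. These are 3 of the 5 lower genes with the smallest p. The remaining ones were Agt and Adh6b, an alcohol dehydrogenase with 6.99 CPM in the control and 0.503 and 0.66 in the curcumin libraries. Cytochrome P450 and conjugating enzyme genes were lower in both for 9 of 28, near the share over all genes, and higher in both for 1. One of them, Cyp26b1, which breaks down retinoic acid, had 13.3, 1.4 and 2.85 CPM.

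Fatty acid and triglyceride synthesis genes were lower in both for 8 of 24, near the 34.0% over all genes, and higher in both for 1. With TMM scaling the counts were 6 and 4, so the list as a whole showed no side. The genes named here are its members with the widest margins among those with at least 5 CPM in the control. Acly, ATP citrate lyase, which makes the acetyl-CoA for fatty acid synthesis, had 691 CPM in the control, 179.8 in curcumin 1 and 284 in curcumin 2, or 3.84-fold and 2.43-fold lower. Mlxipl, which encodes the glucose-sensing factor ChREBP, had 55.8, 5.9 and 25.3 CPM. Srebf1, the insulin-responsive regulator of the same pathway, had 426, 174 and 242 CPM. Fasn, fatty acid synthase, had 363, 242 and 178 CPM. The control was the highest of the 3 libraries in each of these, which were named because they were lower in both. The 15 split members of the list were all above the control in curcumin 1. The summed share of the list was 0.4542% in the control, 0.4828% in curcumin 1 and 0.2996% in curcumin 2. Plin5, a lipid droplet protein of oxidative tissue, had 10.3, 1.37 and 4.6 CPM. Plin2, the droplet protein found in most cells, lay on the other side at 11.2, 128 and 14.5 CPM.

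Cholesterol synthesis and uptake genes were lower in both for 12 of 22 and higher in both for 2, or 7 and 2 with TMM scaling. The summed share of the list was 0.129% in the control, 0.0926% in curcumin 1 and 0.107% in curcumin 2. Insig1, the sterol-sensing brake on SREBP processing and itself an SREBP target, had 114 CPM in the control, 38.6 in curcumin 1 and 62.9 in curcumin 2. Lss, lanosterol synthase, which closes the sterol ring system, had 51.4, 24.9 and 32.2 CPM. In both genes the control exceeded the curcumin libraries, by 1.6-fold to 2.96-fold, and neither had an unadjusted p under 0.05.

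Insulin signalling genes were lower in both for 10 of 22 and higher in both for 3, or 8 and 7 with TMM scaling, so the balance of that list depends on the scaling. Insr, the insulin receptor, had 78.6 CPM in the control, 54.6 in curcumin 1 and 49.4 in curcumin 2. Mtor, the growth kinase downstream of it, had 94.2, 50.4 and 60.4 CPM. Tbc1d4, the AKT substrate that holds back glucose transporter vesicles, had 24.9, 15.6 and 15.3 CPM. The 2 curcumin libraries lay close to each other in all 3. Hk2, the insulin-inducible hexokinase, had 114, 19.7 and 56 CPM. Glucose transport and glycolysis genes were higher in both for 5 of 22 and lower in both for 5, or 8 and 4 with TMM scaling.

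NRF2 antioxidant genes, which curcumin is often said to induce, were lower in both for 9 of 25 and higher in both for 5, a balance that turned to 6 and 8 with TMM scaling. Nqo1, the NRF2-driven quinone reductase, had 39.4 CPM in the control, 17.7 in curcumin 1 and 12.8 in curcumin 2. Gclc, the catalytic subunit for glutathione synthesis, had 64.1, 39.8 and 42.1 CPM. Srxn1, sulfiredoxin, had 75.4, 52.2 and 31.2 CPM. Gpx1, the common cytosolic glutathione peroxidase, lay higher instead at 18.2, 52.7 and 42.4 CPM. Nfe2l2, which encodes NRF2, was split at 56, 61.5 and 36 CPM, and so was Hmox1, heme oxygenase, at 8.36, 15.9 and 6.51 CPM.

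Hormone-responsive, clock and stress genes were mixed. Clock genes were lower in both for 7 of 18, near the share over all genes, and higher in both for 1. Per1, a core clock gene that glucocorticoids also induce, had 88 CPM in the control, 48.5 in curcumin 1 and 35.3 in curcumin 2. Sgk1, a kinase induced by corticosteroids, had 32.7, 21.2 and 10.6 CPM. Unfolded protein response genes were lower in both for 9 of 25 and higher in both for 2, or 4 and 4 with TMM scaling. Hspa5, the chaperone BiP, had 1278, 342 and 1015 CPM, much lower in curcumin 1 than in curcumin 2. Ddit4, a stress-induced brake on mTOR, had 64.6, 14.3 and 34.2 CPM. Hedgehog genes were lower in both for 6 of 15 and higher in both for 3, not far from the shares over all genes. The ligand Ihh had 7.55, 1.37 and 2.38 CPM, and the target Gli1 had 16.5, 3.63 and 8.7 CPM. Axin2, a target of Wnt signalling, had 57.8, 8.41 and 32.5 CPM. Hdac6, the cytoplasmic tubulin deacetylase, had 290.4, 181 and 59.4 CPM.

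Endothelial genes were lower in both for 7 of 12 and higher in both for none. Flt1, a receptor for VEGF, had 32.9 CPM in the control, 12.8 in curcumin 1 and 12.9 in curcumin 2. The summed share of the list was 0.0336% in the control, 0.0354% in curcumin 1 and 0.0190% in curcumin 2. The sum in curcumin 1 was thus not below the control, although 7 members were. Solute and water transport genes were lower in both for 10 of 21 and higher in both for 2, or 7 and 4 with TMM scaling. Atp1b1, a subunit of the sodium pump, had 68, 30.2 and 14.5 CPM. Slc22a5, the carnitine transporter, had 69.7, 41.3 and 15.4 CPM.

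**Figure D5:**
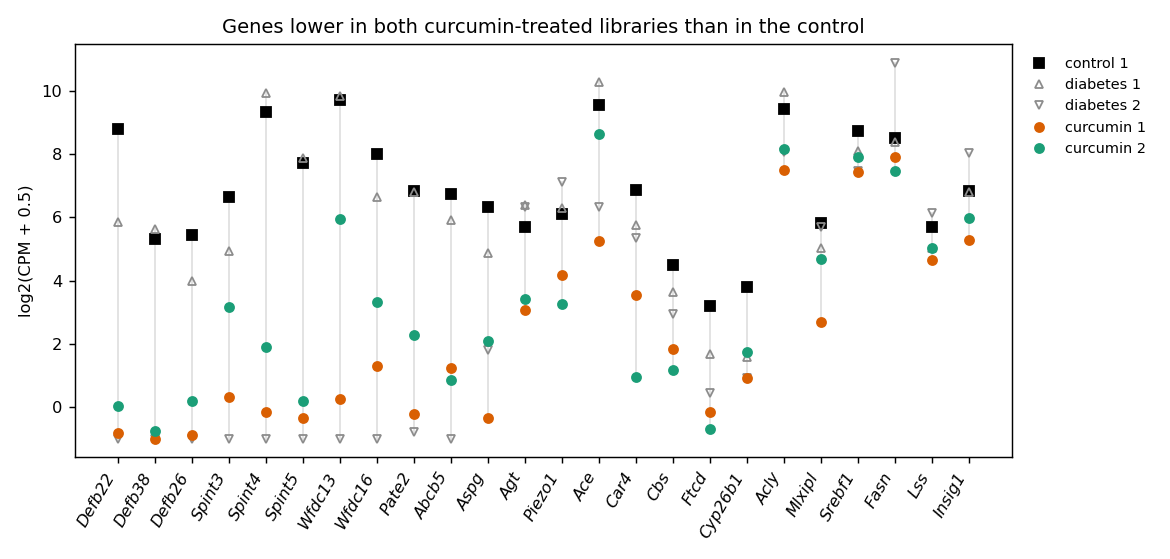
Level of 24 genes lower in both curcumin libraries, as log2(CPM + 0.5) in each of the 5 libraries (y axis), with the control as black squares and curcumin 1 and 2 as filled circles. Defb22, Spint4 and Spint5 lie far below the control in both curcumin libraries, while the lipid genes from Acly to Insig1 lie nearer to it.

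Most adipocyte genes were split. Of 23 markers 3 were higher in both, none was lower in both, and the other 20 were above the control in curcumin 1 and below it in curcumin 2. Adipoq, adiponectin, had 15.1 CPM in the control, 179.5 in curcumin 1 and 1.41 in curcumin 2. Lep, leptin, had 10.3, 241 and 7.19 CPM. Pparg, the master regulator of adipocyte differentiation, had 1.74, 9.71 and 0.212 CPM. Slc2a4, the insulin-responsive glucose transporter GLUT4, had 15.5, 212 and 9.55 CPM. For these genes of fat itself, the curcumin libraries straddled the control and gave no common direction. The inflammatory cytokine gene Tnf was higher in both at 4 counts in the control and 29 in each curcumin library, with 0.148, 1.04 and 0.684 CPM. Ccl2, the main monocyte chemokine, had 0.333, 4.06 and 0.519 CPM, and in curcumin 2 its difference from the control was within counting error (1.56-fold, 0.689 to 3.84). Ucp1, the uncoupling protein of thermogenic fat, had 0.259, 0.144 and 0.636 CPM, from 7, 4 and 27 counts, which is too few to set a side by. Il6, interleukin 6, did not reach 10 counts in any of the 3 libraries.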

How the data were processed

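The authors deposited whole-number counts per Ensembl gene, not normalised, in one table of 78334 genes and 5 stranded libraries of poly-A RNA, per the labels' protocols. FastQC, featureCounts and the build GRCm39 are named in the submitters' processing notes. For the alignment tool, the release of the gene annotation and use of strand, the entry is "not given in the sources used here". Hence reads of overlapping antisense genes and of near-identical family members cannot be assigned with certainty. Symbols were matched by ID for 51486 genes (65.73%). Pseudogene types came from GENCODE M21 by gene ID, and promoters from RefSeq (GRCm38.p6).

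CPM used the library total. Sides were counted over genes with at least 10 counts in 1 of the 3 libraries, and margins used log2(CPM + 0.5). Intervals for folds are exact conditional binomial, shares carry 95% Wilson intervals, and a fold against 0 counts uses the limit of 3 counts per library. edgeR 4.0.16 (R 4.3.3; quasi-likelihood, robust, TMM, filterByExpr, two-sided, Benjamini-Hochberg adjustment, threshold 0.05) was fitted to all 5 libraries with 1 coefficient a group and tested on simulated data. DESeq2 1.42.0 and limma-voom 3.58.1 were alternatives, with other scalings, filters, pseudocounts, a replicate block and left-out libraries.

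Named genes were the 15 widest margins each way (the smaller of both libraries' differences, at least 5 CPM), up to 4 per gene list, the 5 smallest p values each way, 13 selected genes and tissue markers. Not every gene the rule reached is printed. The 54 lists and the members were chosen with earlier results of these data known.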

Additional observations from a re-analysis of the deposited data

How the results depend on the processing

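Counts by side moved with the choices of genes and libraries. Without a low-count filter 51999 genes were counted instead of 28897, and 11229 were higher in both. With a pseudocount of 2, which by its arithmetic shrinks log2 differences, the genes past 2-fold were 115 higher and 312 lower. With curcumin 1 or curcumin 2 left out in turn, a single library decided the side, and the ranges were 11668 to 14591 genes higher, 13756 to 16506 lower, 2052 to 4440 past 2-fold higher and 2959 to 4121 past 2-fold lower, because 1 library has to meet the rule instead of 2. Restricted to protein-coding genes, an alternative chosen after seeing the data, the counts were 3933 higher, 5459 lower, 289 past 2-fold higher and 472 past 2-fold lower, from fewer genes counted. DESeq2 called 77 genes higher, among them Igha, Ighg2b and Ighg2c, while limma-voom and every edgeR setting run, leaving out each curcumin or diabetes library included, called 0.

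The control and curcumin libraries share only replicate number 1, and nothing in the labels ties equal numbers together. With a replicate block the edgeR test called 0 genes, and 75 had a p under 0.05 before adjustment. Under the block the fitted log2 fold change changed sign for Atp1b1 (0.25), Epcam (3.73), Pax8 (3.90) and Spink8 (5.87); the cause was not tested. Fitted values were computed for 110 of the genes named as higher or lower in both. The setting without other-tissue and very abundant genes had values for only 102 of them. The sign of the other 106 did not change under the edgeR, DESeq2 or limma-voom settings in which they had a value. Split genes have only differences per library.

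Differences among genes with 1 to 5 counts were not detectable at this depth. Such genes numbered 4216 in the control, 19751 in curcumin 1 and 8960 in curcumin 2, an order that does not follow the total counts, and the cause was not tested. A single control library leaves no measure of its own spread, so a side against it carries the counting error of that library and any difference of that one sample from other control mice.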

Other observations

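Further lists showed which genes filled each library. The list of Hox genes, which record position along the body axis, and urogenital transcription factors was higher in both for 8 of 26, lower in both for 6 and split for 12, so it had no common side. Some of its members had their counts almost wholly in curcumin 1. Hoxa11 had 0 counts in the control, 62.3 CPM in curcumin 1 and 0.778 in curcumin 2, and Hoxa13 had 0 counts, 14.1 CPM and 0.236 CPM. Hoxa10 had 2.66 CPM in the control, 66.0 in curcumin 1 and 3.18 in curcumin 2. Hoxd13 had 31.2 CPM in curcumin 1 and 0 counts in the other libraries compared. These Hox genes were singled out after their values were seen.

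Genes of nerve and Schwann cells were higher in both for 10 of 15 and lower in both for 1. Sox10, the glial regulator, had 0.518 CPM in the control, 13.3 in curcumin 1 and 0.566 in curcumin 2. Mbp, myelin basic protein, had 6.29, 50.8 and 6.98 CPM, so the excess of these genes was almost wholly in curcumin 1. Tubb3, on the same list, was high in curcumin 2 instead, with 0.296, 0.216 and 34.3 CPM in the same order. The mast cell protease Tpsb2 was high in curcumin 1, at 0.111, 51.0 and 0.236 CPM. Mitochondrially encoded genes of oxidative phosphorylation were lower in both for 5 of 13 and higher in both for 2, or 2 and 3 with TMM scaling, with a summed share of 4.49% in the control, 4.83% in curcumin 1 and 3.68% in curcumin 2. Cytosolic ribosomal protein genes were split for 20 of 30, and in 18 of those curcumin 2 was the library above the control. Their summed share was 0.818% in the control, 0.639% in curcumin 1 and 1.08% in curcumin 2, and curcumin 2 was also the library with 6.98% of counts in processed pseudogenes. Whether these go together was not tested. By the measure that gave 16 coding genes in curcumin 2 alone, 211 coding genes were high in curcumin 1 alone and 2 in the control alone.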
